A study of Mus musculus with 6 samples.

Results

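The Kcn genes encode the subunits of potassium channels and a few proteins that bind to them. Members were taken as mouse protein-coding genes whose symbol starts with Kcn and a further letter, and 94 such genes were found among 21000 protein-coding genes with a curated RefSeq transcript. They fell into 21 subfamilies, named by the letters after Kcn. The samples were primary granulosa cells (GCs) from ovaries of wild type C57BL/6J mice 8 to 9 weeks old, pooled from several animals and plated in separate dishes. Of the 6 dishes, 3 received no agent (control) and 3 received 25 nM dihydrotestosterone (DHT), an androgen that cannot be converted to estrogen, for 24 h. Trimethylation of lysine 27 on histone H3 (H3K27me3) was mapped by chromatin immunoprecipitation and sequencing. The processed data were 1 peak list for each group and lists of gene symbols, so the spread between dishes is unknown and differences between control and DHT are given without a test.

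Potassium channels let potassium ions leave or enter the cell through a selective pore and thereby set the membrane potential. Voltage-gated channels open on depolarisation, calcium- and sodium-activated channels respond to ions inside the cell, inward rectifiers pass current more easily into the cell, and two-pore-domain channels carry the leak current at rest. Granulosa cells, which surround the oocyte and produce steroids, hold potassium channels, among them the large-conductance calcium-activated channel encoded by Kcnma1. The enzyme EZH2 of Polycomb complexes writes H3K27me3, a mark associated with silent genes. Many channel genes that act chiefly in neurons are known Polycomb targets in other cell types.

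In all, 16345 peaks were called in control and 3975 after DHT, and a gene counted as listed when the study placed a peak in its gene body. A gene body list says that at least 1 peak overlapped the gene. It gives neither the number nor the height of the peaks, and the depth of the libraries is unknown from these files. Most called peaks were short and modest. By medians over all control peaks, a peak spanned 431 bp with a fold enrichment of 3.46 and a −log10 q-value of 1.82. For DHT peaks these medians were 319 bp, 4.21 and 2.32. The lowest −log10 q-values were 1.3 (control) and 1.35 (DHT), close to the authors' limit. A listed gene may thus hold only 1 short peak, and an absent call does not show loss of the mark. Of the 9 granulosa cell marker genes looked up, both lists held Fshr, Cyp19a1 was in control alone, Nr5a2 in DHT alone and 6 in neither. Of 2 leukocyte markers both lists held Ptprc and neither held Cd68, and of 2 endothelial markers both held Pecam1 and neither held Cdh5. The 3 theca and stroma markers, Cyp17a1, Insl3 and Star, were in neither list. Long genes are listed more often, so the listed shares of genes of like length were summed over each marker set, as explained below. The sums for control and DHT were 1.56 and 0.56 for granulosa, 0.44 and 0.179 for leukocyte and 0.371 and 0.107 for endothelial markers. For theca and stroma markers they were 0.0262 and 0.0119. These marker counts were not tested and are no measure of cell type. Gene expression was not measured in these libraries, so the labelled cell type could not be checked from them.

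To ask which potassium channel genes had a called peak, the 94 genes were looked up in both gene body lists. The control list held 20 Kcn genes, which is 21.3% of the family (95% Wilson interval 14.2 to 30.6%), where it held 13.6% of all protein-coding genes. The DHT list held 14 Kcn genes, or 14.9% (interval 9.08 to 23.5%), where the share over all protein-coding genes was 4.97%. There were 10 Kcn genes in both lists (3.01% of all protein-coding genes were), 10 in control alone (10.6%) and 4 in DHT alone (1.96%). The other 70 Kcn genes, or 74.5%, were in neither list, compared with 84.5% of all protein-coding genes. The intervals here and below cover counting error only. Thus the number of listed Kcn genes after DHT was 70.0% of the control number, and over all protein-coding genes it was 36.6%. Gene length is not taken into account in this contrast. From genes of like length, as explained below, the numbers were 25.0 for control and 11.4 for DHT.

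**Figure D1:**
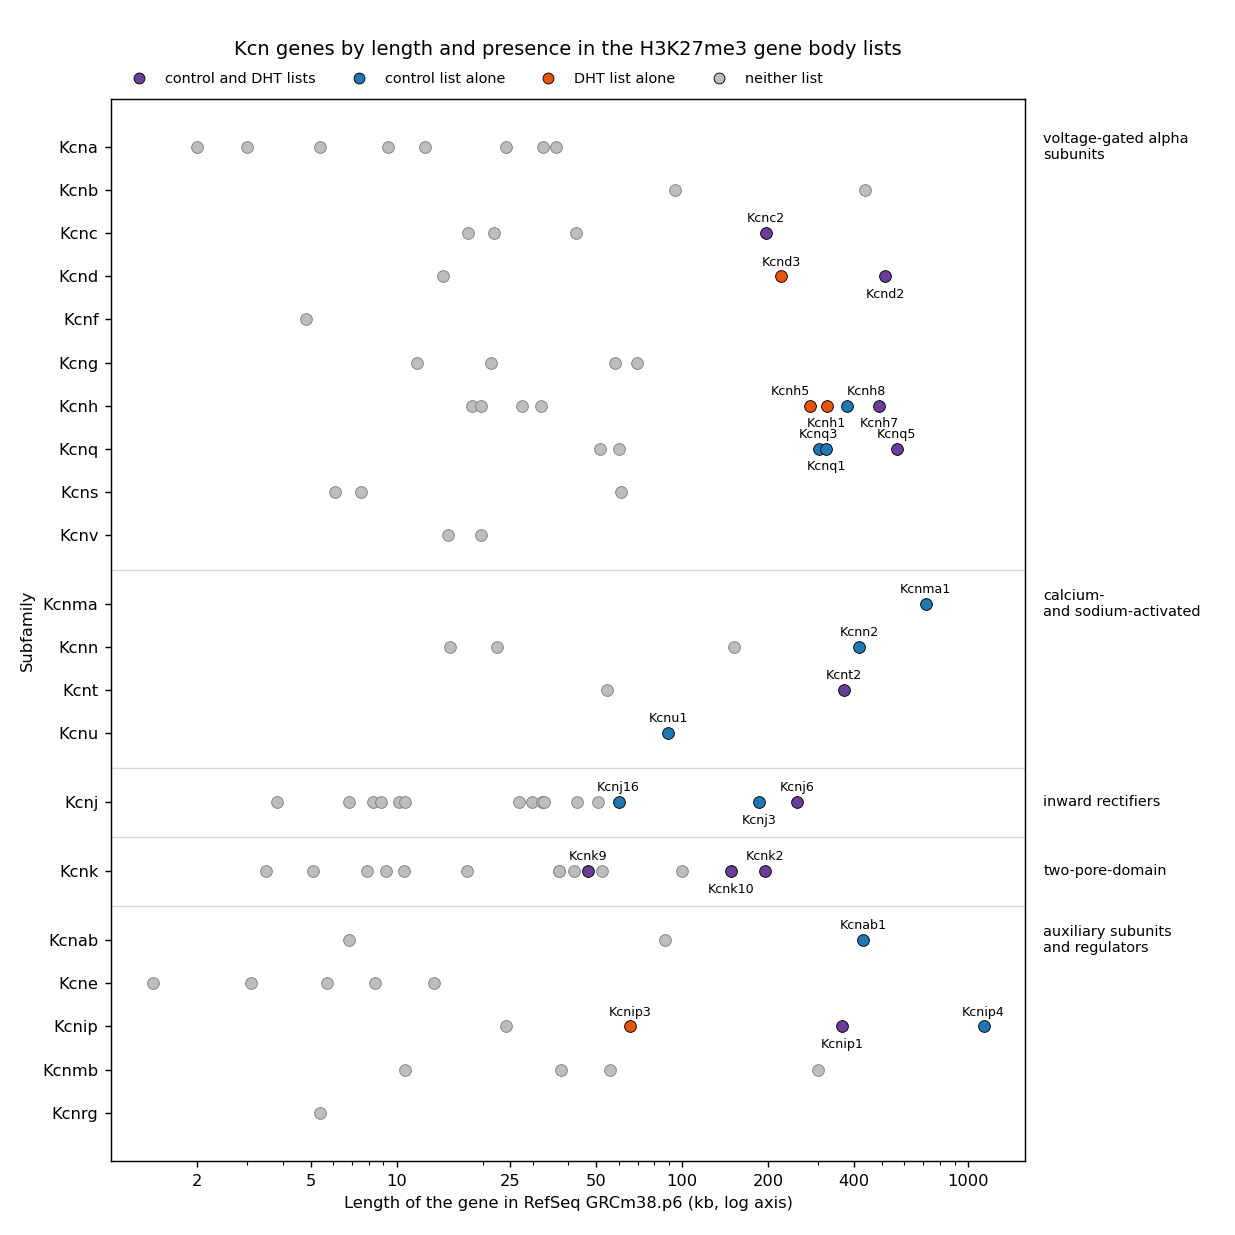
Each point is 1 of the 94 Kcn genes, placed by the length of the gene (kb, log axis) and its subfamily, and coloured by the gene body lists that hold it. The 24 listed genes are named, and 20 of them are 100 kb or longer; none of the 41 genes under 25 kb is listed.

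Listing followed the length of the gene. The 24 Kcn genes in either list had a median length of 310.2 kb (46.7 to 1135.6 kb), and the 70 in neither list had a median of 19.8 kb (1.4 to 436.8 kb). Of 23 Kcn genes of 100 kb or more, 20 were listed. Of 56 Kcn genes under 50 kb, 1 was listed, Kcnk9. The same held across the genome: 2.36% of all protein-coding genes under 25 kb were in the control list, 48.8% of those from 100 to 200 kb and 93.7% of those of 400 kb or more. In the DHT list the corresponding shares were 0.72%, 17.1% and 60.1%. The Kcn genes of 100 to 200 kb stood above this in the DHT list, with 3 of 5 listed (interval 23.1 to 88.2%), and those of 400 kb or more had 3 of 8 listed (interval 13.7 to 69.4%). The 3 of 5 were Kcnc2, Kcnk2 and Kcnk10, and of the genes nearest to them in length 22.5%, 22.0% and 17.0% were in the DHT list. This range was 1 of several and was not fixed beforehand. The Kcn family has a median length of 32.7 kb, compared with 17.7 kb for all protein-coding genes, and the share over all genes is therefore not a like comparison.

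**Figure D2:**
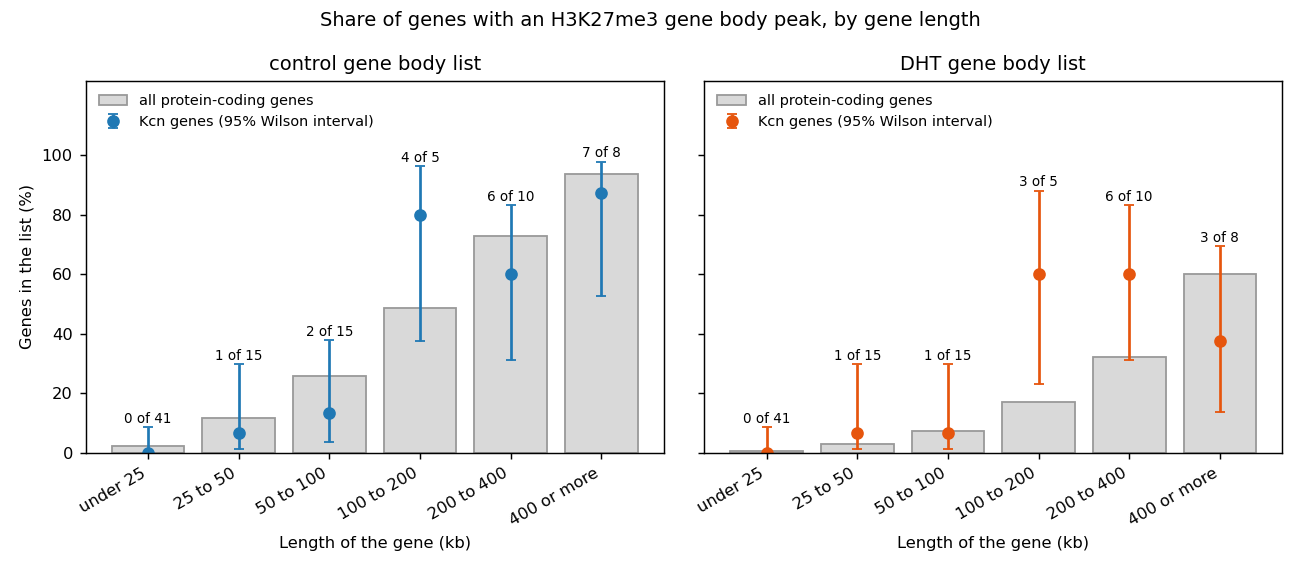
Grey bars give the share of all protein-coding genes in each gene body list (%) by length of the gene (kb), and points give the share of Kcn genes with 95% Wilson intervals and the counts above. Shares of all protein-coding genes climb with length in both lists, and those of Kcn genes do not rise at every step in either list. From 200 to 400 kb 6 of 10 Kcn genes were in each list, beside 73.0% (control) and 32.4% (DHT) of all protein-coding genes.

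To set the family beside genes of like length, each Kcn gene was given the listed share of its length class, 1 of 50 classes of protein-coding genes, and these shares were summed. For the control list the sum came to 25.0 genes, or 26.6% of the family, and 20 were observed. For the DHT list the sum was 11.4 genes, or 12.1%, and 14 were observed. Both class shares lay within the intervals of the observed shares. Such an interval treats all genes of a group alike, whatever their length, so this reading is a description and no test. For genes in both lists the sum was 8.99 with 10 observed, for control alone 16.0 with 10 observed, and for DHT alone 2.37 with 4 observed. The class share for control alone, 17.0%, also lay within the interval of the observed 10.6% (5.88 to 18.5%). Hence, with length taken into account, no difference between Kcn genes and other genes of the same length was shown at this number of genes, and none was tested.

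Of the 20 Kcn genes in the control list, 10 were also in the DHT list, which is 50% (interval 29.9 to 70.1%), where 22.2% of all control listed genes were. Within 10 length classes of the control listed genes the share was 38.4%, which lies inside that interval. Of the 14 Kcn genes in the DHT list, 71.4% (interval 45.4 to 88.3%) were also in the control list, beside 60.6% over all DHT listed genes. Across all protein-coding genes, those in both lists were longer (median 235.7 kb) than those in control alone (87.0 kb) or in DHT alone (71.6 kb). Within the Kcn family the order differed: the medians were 308.4 kb for both lists, 348.3 kb for control alone and 251.1 kb for DHT alone. These medians rest on 10, 10 and 4 genes and their ranges overlapped, from 46.7 to 564.3 kb, from 59.9 to 1135.6 kb and from 65.6 to 321.0 kb.

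Voltage-gated alpha subunits, which form the pore of channels that open with depolarisation, were the largest class with 40 genes. The control list held 7 of them (17.5%, interval 8.75 to 31.9%), beside 28.7% from length classes, and the DHT list held 7 (17.5%), beside 13.4%. In both lists were Kcnc2, Kcnd2, Kcnh7 and Kcnq5. Kcnc2, a fast delayed rectifier of rapidly firing neurons, is 196.4 kb long. Kcnd2, which carries the transient A-type current, is 514.5 kb long, and 96.6% of that is a single intron. Kcnh7, an ERG-type channel, and Kcnq5, which carries the M-current, are 490.9 and 564.3 kb long. In the control list alone were Kcnh8, an ELK-type channel of 376.5 kb, Kcnq1, the slow delayed rectifier of heart and epithelia, of 320.2 kb, and Kcnq3, a partner of Kcnq5 in the M-current, of 300.3 kb. These 3 genes are 7.5% of the class (interval 2.58 to 19.9%), beside 18.0% from length classes, a sum of 7.19 genes. Kcnq1 lies in an imprinted domain, and the noncoding Kcnq1ot1 that overlaps it was in neither list.

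In the DHT list alone were 3 further voltage-gated subunits, Kcnd3, Kcnh1 and Kcnh5. They make up 7.5% of the class (interval 2.58 to 19.9%), beside 2.67% from length classes, a sum of 1.07 genes. That class share lay inside the interval, near its lower end. Kcnd3 (222.1 kb) carries the A-type current with Kcnd2, and 29.0% of the 200 protein-coding genes nearest to it in length were in the DHT list and 64.5% in the control list. Kcnh1 (321.0 kb) and Kcnh5 (280.1 kb) are the pair of EAG channel genes. Of the genes nearest in length to Kcnh1, 6.5% were in the DHT list alone, and of those nearest to Kcnh5, 8.5%. For these 3 genes, then, the more common outcome at their length was a place in the control list, where they were not found. The Kcnh subfamily had 4 of 8 genes listed. From length classes the sums for a place in either list were 1.63 of 2 EAG genes, 1.07 of 3 ELK genes and 1.18 of 3 ERG genes. List by list, the sums for the 2 EAG genes were 1.47 for control, with 0 observed, and 0.662 for DHT, with 2 observed. The other 4 Kcnh genes were between 18.3 and 32.1 kb long and were in neither list.

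The Kcna subfamily, the Shaker channels, had 8 genes and 0 in either list, and its longest gene spans 36.2 kb. At that length 87.0% of genes were in neither list. Silent subunits, which join other voltage-gated subunits and form no channel of their own, are encoded by 10 genes of the Kcnf, Kcng, Kcns and Kcnv subfamilies, and 0 were listed. The sum from length classes for a place in either list was 1.12 of these 10 genes. The longest of them were Kcng2 (69.7 kb), Kcns3 (61.0 kb) and Kcng3 (58.0 kb). Kcnb2, a delayed rectifier of excitable cells, spans 436.8 kb and was the longest unlisted Kcn gene; of the 200 genes nearest in length, 7.5% were in neither list.

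Of the 8 calcium- and sodium-activated channel genes, 4 were in the control list, and the DHT list held 1, beside sums from length classes of 4.02 and 2.04. Kcnt2, a sodium-activated channel of 368.4 kb, was in both lists. Kcnma1, the large-conductance channel, was in the control list alone, and at its length of 712.8 kb 96.5% of genes had a place in the control list and 59.5% had one after DHT. Also in control alone were Kcnn2, a small-conductance calcium-activated channel of 417.1 kb, and Kcnu1, the pH-sensitive channel of sperm, of 89.3 kb. Kcnn3, a relative of Kcnn2 of 152.3 kb, was in neither list, as were 39.5% of genes of like length.

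Inward rectifiers contributed 3 of 15 genes to the control list and 1 of 15 to the DHT list, beside length class sums of 2.44 and 0.85. Kcnj6 (252.7 kb) was in both lists and Kcnj3 (186.3 kb) in control alone. Their products are subunits of the G protein-gated channels that slow firing in heart and brain. The other 2 genes of that group, Kcnj5 and Kcnj9, are 29.7 and 8.8 kb long and were in neither list. Kcnj16 (59.9 kb), whose product joins other inward rectifiers in kidney and glia, was in control alone, where 24.0% of genes of like length were in the control list.

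Two-pore-domain channels had 14 genes, and the 3 that were in the control list, Kcnk2, Kcnk9 and Kcnk10, were also the 3 in the DHT list. In the DHT list this was 21.4% of the class (interval 7.57 to 47.6%), beside 5.34% from length classes, a sum of 0.748 genes. For the control list the share was likewise 21.4%, beside 17.2%. Kcnk2 (194.9 kb) and Kcnk10 (148.8 kb) encode the TREK channels, which respond to stretch and fatty acids, and the third gene of that group, Kcnk4, spans 9.2 kb and was not listed. Among the genes nearest in length, 22.0% for Kcnk2 and 17.0% for Kcnk10 were in the DHT list. Kcnk9, an acid-sensitive leak channel from an imprinted locus, was the shortest listed Kcn gene at 46.7 kb. Of the 200 genes nearest to it in length 15.5% were in the control list, 5.0% in the DHT list and 3.0% in both. The longest two-pore-domain gene in neither list was Kcnk13, of 99.5 kb.

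Auxiliary subunits and regulators had 17 genes, of which 3 were in the control list, and the DHT list held 2, beside length class sums of 4.66 and 2.36. The Kcnip genes encode calcium-binding proteins that join the A-type channels, and 3 of 4 were listed. Kcnip1 (364.0 kb) was in both lists, as were 33.5% of genes of like length. Kcnip4, at 1135.6 kb the longest Kcn gene, was in control alone, and 65.5% of genes of like length were in the DHT list. Kcnip3 (65.6 kb), which is also known as a transcriptional repressor that responds to calcium, was in DHT alone, where 4.5% of genes of like length were. Kcnab1 (429.0 kb), a beta subunit of Shaker channels related to aldo-keto reductases, was in control alone, and its relative Kcnab2 (86.8 kb) was in neither list. Of 4 Kcnmb genes, which encode beta subunits of the large-conductance channel, 0 were listed, although Kcnmb2 spans 298.3 kb and 19.5% of genes of like length were in neither list. Of 5 Kcne genes, none longer than 13.5 kb, 0 were listed.

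**Figure D3:**
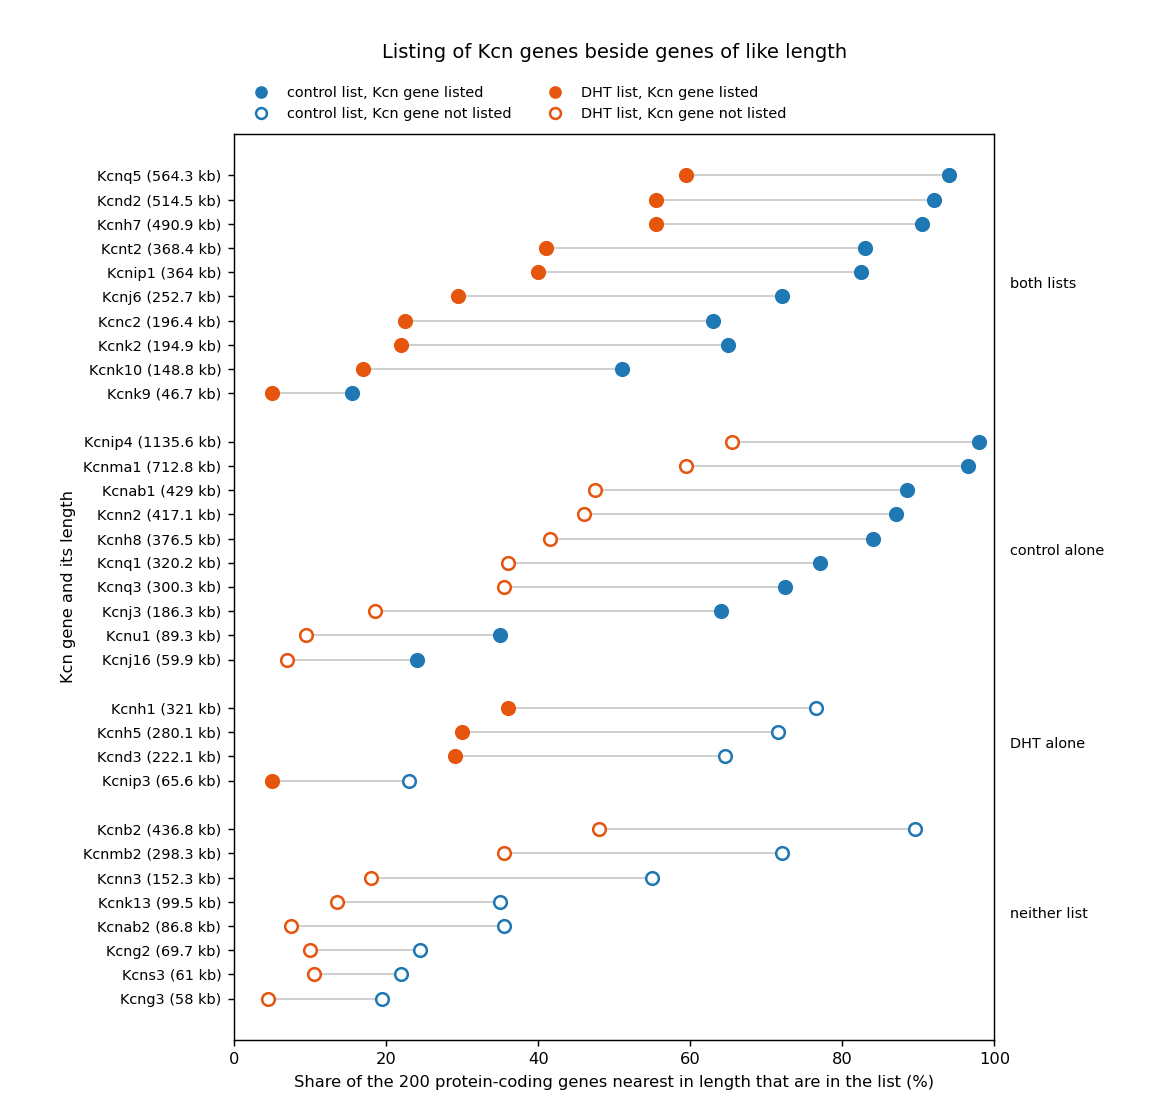
For each of the 24 listed Kcn genes and 8 long unlisted ones, points give the share (%) of the 200 protein-coding genes nearest in length that are in the control (blue) or DHT (orange) gene body list; a filled point means that the Kcn gene itself is in that list. Kcnk9 and Kcnip3 are filled for DHT at 5.0%, and Kcnb2 is open for control at 89.5%.

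Proteins that join potassium channels were looked up next. Of 13 partner genes, 4 were in the control list, and the DHT list held 5, and 3 were in both: Dpp10, Cntnap2 and Adam22. From length classes the sums over the 13 genes were 4.68 for control and 2.38 for DHT. Dpp6, which like Dpp10 speeds the gating of A-type channels, was in control alone, and Abcc9, the sulfonylurea receptor of vascular channels, and Lgi1, a secreted ligand of Adam22, were in DHT alone. At 44.3 kb, Lgi1 had a length at which 3.5% of genes were in the DHT list. Cntnap2, which clusters Shaker channels at the node, spans 2241.3 kb and was also in the list of downregulated genes with a gene body peak. That list is longer than the paper's own count of such genes, so a place in it may not match the paper's call. The partners not listed were Abcc8, Amigo1, Cntn2 and the 4 Lrrc genes. Together the A-type channel genes (Kcnd1, Kcnd2, Kcnd3), the 4 Kcnip genes, Dpp6 and Dpp10 make up 9 genes, a set put together after their values were seen, of which 7 were listed: 3 in both lists, 2 in control alone and 2 in DHT alone. The sum from length classes for a place in either list was 5.9 of 9, so most of these genes were of a length at which listing is common. These 9 genes span from 14.5 to 1513.7 kb.

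Other families of membrane transport genes were set side by side. Voltage-gated calcium and sodium channel genes (Cacn and Scn, 40 genes, median 104062 bp) had 37.5% of genes listed in control and 12.5% after DHT, beside 39.2% and 17.6% from length classes. Ionotropic glutamate and GABA-A receptor genes (38 genes) had 50% and 21.1%, beside 48.2% and 23.4%. Solute carrier genes (375 genes) had 18.1% and 8.27%, beside 15.6% and 5.49%. The last of these class shares lay just below the interval of its observed share, 5.88 to 11.5%. Of the control listed genes of these families, 26.7%, 31.6% and 23.5% were also in the DHT list, beside 50% for Kcn genes. Within length classes of the control listed genes these shares were 35.2%, 40.8% and 18.6%, beside 38.4% for Kcn genes. The interval for the Kcn genes, 29.9 to 70.1%, overlapped those of the other families, which were 10.9 to 52.0%, 15.4 to 54.0% and 15.0 to 34.9%. The differences between families were not tested.

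**Figure D4:**
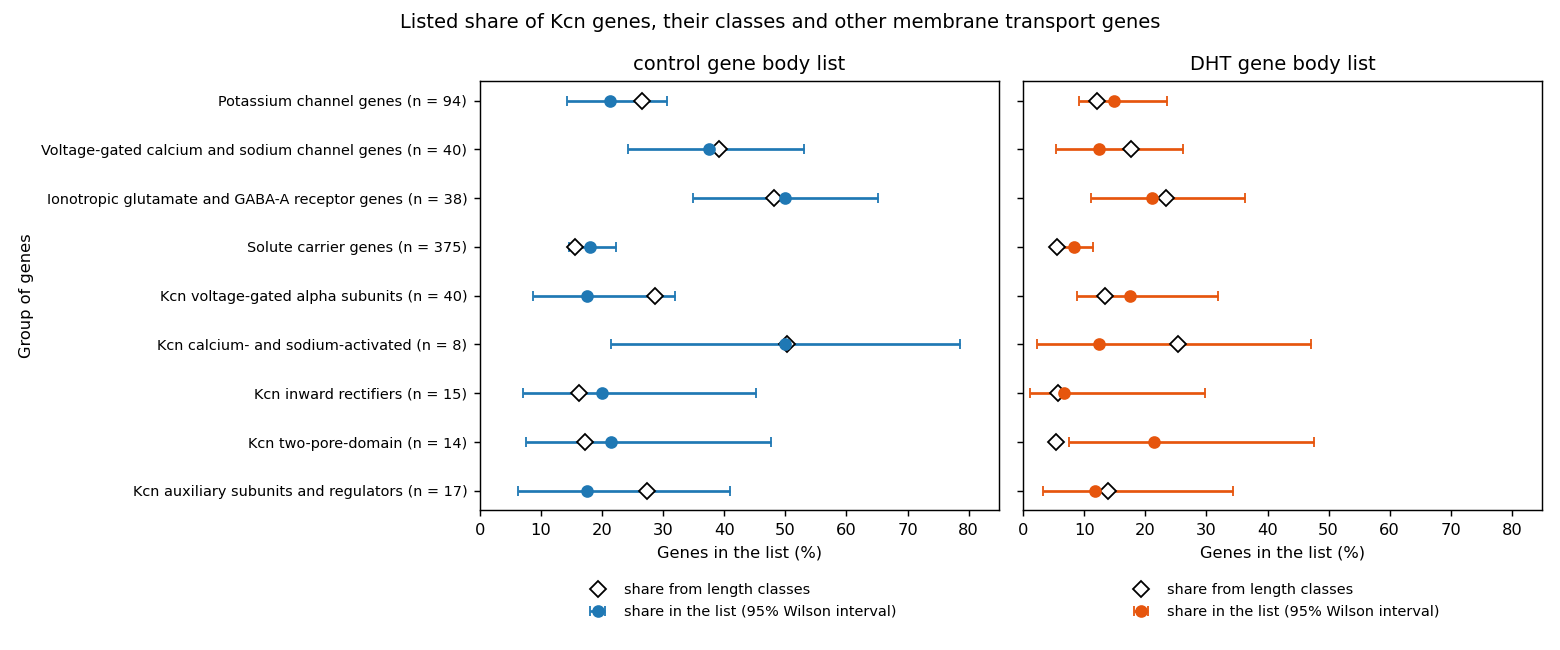
Coloured points give the share of genes (%) in the control (left) and DHT (right) gene body lists with 95% Wilson intervals, for the Kcn genes, other transport families and the classes of Kcn genes; open diamonds give the share from length classes. The diamond lies inside the interval for every group of Kcn genes except the two-pore-domain genes in the DHT list, at 5.34% beside an interval from 7.57 to 47.6%; among the other families the solute carriers in the DHT list have a diamond below their interval.

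In promoters, taken by the study as 1 kb on either side of the start site, 1 Kcn gene was in the control list (1.06%, interval 0.188 to 5.78%) and 0 in the DHT list (interval up to 3.93%). Over all protein-coding genes the shares were 0.638% and 0.195%. The gene was Kcnab1, which also had a gene body peak in control. Kcnab1 has 3 curated start sites, and the gene list does not say which of them the peak overlapped, so the promoter window of each is shown. The windows run from 250 bases before to 50 bases after the start site, read 5′ to 3′ on the plus strand of GRCm38.p6 from RefSeq. Their positions are chr3:64948962-64949261, chr3:65108764-65109063 and chr3:65187853-65188152. The peaks are in mm9, a different assembly, and were not compared with these positions. Capitals mark a 6-base arm of the androgen response element, AGAACA or its reverse complement TGTTCT.
Kcnab1 start site 1: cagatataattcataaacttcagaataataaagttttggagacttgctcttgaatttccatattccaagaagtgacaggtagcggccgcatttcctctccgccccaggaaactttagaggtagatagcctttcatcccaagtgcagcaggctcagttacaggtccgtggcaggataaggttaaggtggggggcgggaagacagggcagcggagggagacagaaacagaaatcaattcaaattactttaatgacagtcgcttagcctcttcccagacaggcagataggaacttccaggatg
Kcnab1 start site 2: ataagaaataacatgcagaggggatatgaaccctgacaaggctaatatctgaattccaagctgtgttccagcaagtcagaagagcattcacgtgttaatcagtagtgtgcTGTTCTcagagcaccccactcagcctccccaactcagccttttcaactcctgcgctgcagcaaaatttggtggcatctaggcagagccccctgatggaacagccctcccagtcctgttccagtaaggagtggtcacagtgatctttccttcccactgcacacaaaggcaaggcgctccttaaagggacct
Kcnab1 start site 3: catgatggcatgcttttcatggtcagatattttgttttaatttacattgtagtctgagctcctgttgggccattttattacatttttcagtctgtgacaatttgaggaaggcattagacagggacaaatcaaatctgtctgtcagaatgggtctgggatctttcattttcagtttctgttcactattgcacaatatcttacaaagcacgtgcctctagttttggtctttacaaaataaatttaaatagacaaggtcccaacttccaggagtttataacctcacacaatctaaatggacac

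The Kcnab1 windows held 7, 3 and 1 CpG dinucleotides, and their GC content was 46.7%, 50.3% and 36.7%. Such an arm was present in the second window and in neither of the others. Over all 32851 promoter windows of the RefSeq table, which was not restricted to protein-coding genes, 19.0% held at least 1 arm on either strand. The full element, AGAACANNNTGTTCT, which has an arm on each side, was in 0.00913% of all windows and in 0 of the 94 windows of Kcn genes. A match is a run of letters and no evidence of binding, and these windows are shorter than the promoters used by the study.

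The 4 Kcn genes in the DHT list alone are shown next, as these are the genes that had a called peak after androgen and none in control. For Kcnip3, which has 3 start sites in the table, the window with the most CpG dinucleotides is given. The windows lie at chr3:105451640-105451939 (plus strand), chr1:192190527-192190826 (plus), chr12:75177283-75177582 (minus) and chr2:127482450-127482749 (minus) in GRCm38.p6. None of these genes was in a promoter list.
Kcnd3: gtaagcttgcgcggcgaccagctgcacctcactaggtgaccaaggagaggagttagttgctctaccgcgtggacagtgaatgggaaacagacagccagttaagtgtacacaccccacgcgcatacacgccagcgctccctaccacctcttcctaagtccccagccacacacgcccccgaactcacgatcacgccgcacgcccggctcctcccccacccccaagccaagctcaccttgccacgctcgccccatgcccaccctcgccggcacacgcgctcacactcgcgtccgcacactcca
Kcnh1: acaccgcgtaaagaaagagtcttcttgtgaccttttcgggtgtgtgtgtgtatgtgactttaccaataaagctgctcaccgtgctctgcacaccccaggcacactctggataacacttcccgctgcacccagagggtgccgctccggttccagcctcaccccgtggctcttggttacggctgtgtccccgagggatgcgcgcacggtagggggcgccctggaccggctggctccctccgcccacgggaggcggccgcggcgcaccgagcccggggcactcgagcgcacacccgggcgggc
Kcnh5: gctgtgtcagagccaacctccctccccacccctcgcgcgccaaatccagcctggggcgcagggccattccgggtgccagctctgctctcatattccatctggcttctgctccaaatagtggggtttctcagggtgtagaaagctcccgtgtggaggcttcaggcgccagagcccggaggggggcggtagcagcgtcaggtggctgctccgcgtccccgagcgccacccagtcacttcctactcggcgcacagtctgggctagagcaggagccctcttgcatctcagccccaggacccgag
Kcnip3 start site 3: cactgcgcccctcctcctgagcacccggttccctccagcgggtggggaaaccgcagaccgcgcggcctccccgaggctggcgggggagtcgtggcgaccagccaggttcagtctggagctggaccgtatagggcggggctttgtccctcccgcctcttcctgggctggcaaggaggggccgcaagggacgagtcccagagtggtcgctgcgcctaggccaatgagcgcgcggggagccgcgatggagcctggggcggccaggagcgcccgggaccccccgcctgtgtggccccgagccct

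These windows held 25, 27, 17 and 28 CpG dinucleotides in the order shown, and no letter is in capitals because no arm was found in any of the 6 windows of these genes. An arm was present in 8 of 20 windows of Kcn genes in both lists (40.0%), in 2 of 12 of those in control alone (16.7%) and in 6 of 56 of those in neither list (10.7%), and in 17.0% of all Kcn windows. Windows of 1 gene are not independent. By gene, the counts were 4 of 9 for both lists, 2 of 6 for control alone and 6 of 50 for neither list. Over all genes of the table the share was 21.3%. These differences were not tested. Windows were at hand for 69 of the 94 Kcn genes. Taking for each gene the window with the most CpG, the median was 26 for DHT alone (4 genes), 20 for both lists (9 genes), 9 for control alone (6 genes) and 10 for neither list (50 genes). The median over all 27025 genes of the table was 8, and that table was not restricted to protein-coding genes. Values overlapped between groups: control alone ran from 7 to 36, both lists from 6 to 33 and neither list from 0 to 49. Listed Kcn genes had 38 windows for 19 genes and unlisted ones 56 for 50, and a gene with more start sites has more chances of a high count.

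**Figure D5:**
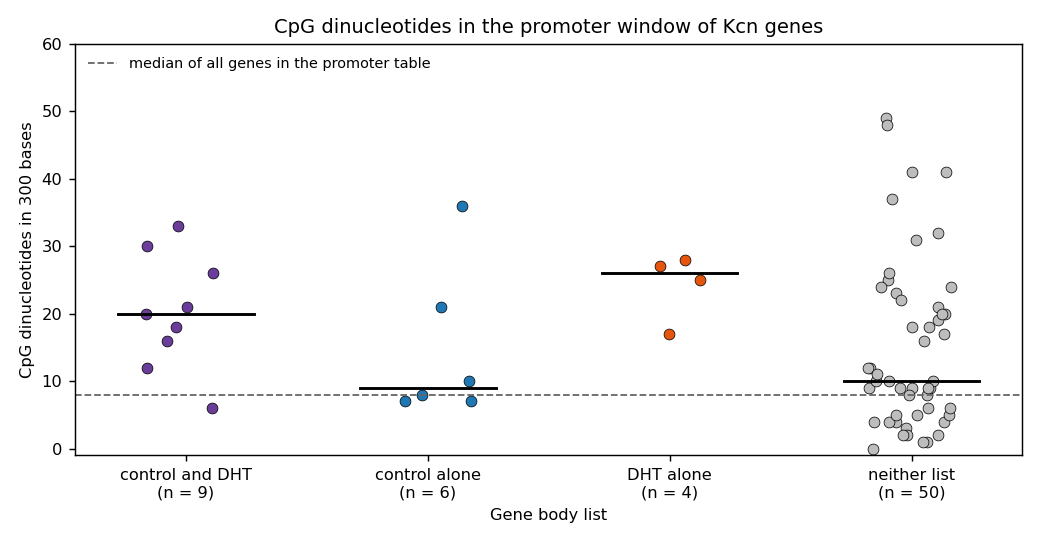
Points give the number of CpG dinucleotides in the 300 bases around the start site, for the window of each Kcn gene with the most CpG, by gene body list. Black lines are medians. The dashed line is the median of all genes in the table (8), which was not restricted to protein-coding genes. The 4 genes in DHT alone lie between 17 and 28, within the range of the 50 genes in neither list.

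Lastly, the lists of genes that changed in expression after DHT were searched. Among upregulated genes linked by chromatin contacts to an enhancer whose H3K27me3 correlated negatively with expression, there was 1 Kcn gene, Kcng2 (0.281% of all protein-coding genes were listed). Per the methods, the contacts were taken from other data sets and not measured in these libraries. The correlation, with a limit of -0.4, was taken across 6 samples, with expression from separately collected cells. Kcng2 encodes a silent subunit, spans 69.7 kb and was in no gene body or promoter list; of the 200 genes nearest in length, 70.5% were in neither gene body list. The list of downregulated genes with such an enhancer held 0 Kcn genes, and 0.148% of all protein-coding genes. The lists of upregulated and downregulated genes with a gene body peak each held 0 Kcn genes, where they held 0.1% and 0.0667% of all protein-coding genes. So 0 of the 24 Kcn genes with a gene body peak was among the regulated genes of these lists. The list of downregulated genes with a gene body peak held 15 symbols. The paper's text counts fewer such genes, and the reason for the difference is unknown. Over the 94 Kcn genes, the length class sums for upregulated and downregulated genes with a gene body peak were 0.169 and 0.15. A count of 0 was thus near these sums and is no trait of the Kcn genes.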

How the data were processed

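The authors mapped reads to mm9 with Bowtie2 2.3.4, kept uniquely mapped reads and called broad peaks with MACS2 2.1.1 at a q-value of 0.05 or less, with 1 peak list per group of 3 samples; how samples were combined is not given in the sources used here. Duplicates were removed per the methods, while the deposited peak names name the automatic setting. The deposited peak files hold a score, a fold enrichment (ratio) and −log10 p-values and q-values for each peak. The other deposited files are the authors' lists of gene symbols, which carry no values. Per the methods, regulated genes had an adjusted p-value of 0.05 or less and an absolute log2 fold change above 1.

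Symbols were matched to RefSeq GRCm38.p6, older symbols through synonyms: 3133 of 3144 control and 1142 of 1146 DHT gene body symbols matched a curated gene, 2851 and 1043 of them protein-coding. GRCm38.p6 gave names, lengths, exons and promoter windows, and no peak was placed on it, since the peaks are in mm9. Length class shares used 50 classes of equal number. This step was tested on simulated data. Kcn genes in any list, the 10 longest in no gene body list and listed partner genes were named. Members, lists and rules were chosen with earlier results of these data known. The smaller channel groups (EAG, ELK, ERG, silent subunits, G protein-gated and TREK channels) were not fixed beforehand either. A related family of cation channels fixed beside the partners and 2 of the 10 longest unlisted genes are not reported here. No test was run, since values per sample were not used. Groups followed the labelled agent. Python 3.11.15, numpy 2.4.6, scipy 1.17.1, pandas 2.3.3 and matplotlib 3.10.9 were used.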

Additional observations from a re-analysis of the deposited data

How the results depend on the processing

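No paired analysis was possible because each group of 3 samples has a single list. The lists could therefore not be rebuilt without each replicate, and stricter peaks could not be placed in genes because no mm9 annotation was used here. Of 26 alternatives over 6 results, 5 of them chosen after seeing the data, 26 stayed within the interval of the observed share or, for counts, within 1.5 times. The observed number of Kcn genes over the length class sum ran from 0.7 to 0.835 for the control list and from 1.1 to 1.37 for DHT, with 0.8 and 1.23 as reported. The lowest values came from classes by the longest intron. The share of control listed genes in the DHT list expected within classes ran from 38.4% to 40.6%. Without auxiliary subunits 17 and 12 Kcn genes were listed, and 52.9% of the 17 were in both lists. The unknown depth of the libraries limits what an absent call means.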

Other observations

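Several Kcn genes share their span with another gene in RefSeq GRCm38.p6, and a peak in the shared part would list both. Of the 24 listed Kcn genes 15 overlapped another gene, and 2 overlapped one that was itself listed: Kcnab1 with the noncoding A730090N16Rik (25.4 kb) and Kcnn2 with the noncoding A330093E20Rik (361.8 kb), both noncoding genes in the control list. Conversely, 4 unlisted Kcn genes overlapped a listed gene. Kcnmb1 (10.7 kb), a beta subunit of the large-conductance channel, overlaps Kcnip1 (364.0 kb), which was in both lists. Kcnj13 overlaps Gigyf2 (123.9 kb), in the control list, Kcne4 overlaps Gm29536 (432.9 kb), in the control list, and Kcnj15 overlaps Gm31641 (75.2 kb), in both lists. In these places the larger gene was listed and the Kcn gene was not.

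The listed Kcn genes had longer introns than the unlisted ones. The longest intron had a median of 139.9 kb in the 24 listed genes (15.6 to 1042.0 kb) and of 6.4 kb in the 70 unlisted ones. As a share of the gene it was similar: it made up more than 50% of the gene in 13 of the 24 listed and 34 of the 70 unlisted genes. The number of exons had a median of 10 in listed and 3 in unlisted genes. Kcnk9 has 2 exons and an intron of 33.0 kb, and Kcnt2 has 28 exons, with a longest intron of 104.9 kb. Listed genes were found on 15 of the 19 chromosomes that hold a Kcn gene. Of the 9 Kcn genes on chromosome 1, 4 were listed (Kcnh1, Kcnk2, Kcnq5 and Kcnt2), and of the 10 on chromosome 2, 3 were. Those 4 genes span from 194.9 to 564.3 kb, and the counts by chromosome were not compared with length classes.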
